A study of Mus musculus with 9 samples.

Results

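The genes described here flank Dhh on mouse chromosome 15. Their names were listed by position, with a start within about 5 Mb of that of Dhh on the mm10 assembly, and 60 were listed. The table of the series, which has 20368 genes, held 58 of them by symbol or identifier. Bin2 and Atf7 were not matched and are not analysed here. Mettl7a2 shares 1 row with Methig1. Of the 58 genes, 56 had at least 1 FPKM (reads scaled by transcript length and library depth) in at least 3 libraries and were tested. Spats2 and Csrnp2 did not pass that filter and stayed at or below 0.436 FPKM in every library. A further 127 genes of the table lie in the same window, and 27 of those were tested.

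The libraries came from erythroblasts that carry the transferrin receptor CD71 and the erythroid antigen Ter119, sorted from the spleen of C57BL/6 mice at 4 weeks of age. There were 3 knockout (KO, Dhh-/-), 3 heterozygous (HET, Dhh+/-) and 3 wildtype (WT, Dhh+/+) libraries. The labels do not say how the null allele was made, in which strain, how often it was backcrossed, or whether the WT mice were littermates. They also do not give how many mice went into each library, and p-values here therefore reflect library-to-library spread, which may be technical.

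A targeted gene is inherited together with the stretch of chromosome around it. When an allele is made in cells of one strain and bred onto another, neighbouring genes can keep the sequence of the first strain, and such passengers can differ in expression from their copies on a wildtype chromosome. A targeted change can also alter the control or the splicing of the genes beside it. In such a design a neighbour's difference and a response to the loss of the targeted gene cannot be told apart from expression alone.

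Dhh itself (chr15:98891152-98898540, minus strand), which encodes the secreted ligand Desert hedgehog, was listed at 0 in all KO and WT libraries and at 0.0267 FPKM in HET replicate 1 and therefore gives no check of the labels. Reads recovered from the deposited values ranged from 7.05 to 14.23 M per library (M, megareads). The 9 listed erythroid markers were abundant throughout but not alike between libraries. They summed to 15979.3, 23485.5 and 17436.7 FPKM in KO, to 13890.6, 26367.4 and 14547.1 FPKM in HET, and to 25663.6, 23421.3 and 17707.8 FPKM in WT libraries. The erythroid transcription factor Gata1, 1 of the 9, was at 171 to 234 FPKM in KO, 190.4 to 206 FPKM in HET and 184 to 254 FPKM in WT libraries. Markers of leukocytes, a class of cells that the sort should remove, were not at 0. The 38 of 39 listed B cell, T and NK cell, macrophage and neutrophil markers that had a row summed to 1150.0, 3714.2 and 2302.4 FPKM in KO, to 1631.5, 2095.4 and 2232.7 FPKM in HET, and to 3617.0, 2874.1 and 515.6 FPKM in WT libraries. WT replicate 3 was thus lowest, with Pax5, Ebf1, Vpreb3, Cd3d, Cd3g and Cd8b1 listed at 0. KO replicate 2 and WT replicate 1 were highest. In bulk RNA, fewer cells of a type and less RNA per cell cannot be told apart.

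No gene flanking Dhh passed the threshold in any comparison, and neither did any other gene. In KO against WT libraries, limma on log2(FPKM + 1) called 0 of the 56 genes at a Benjamini-Hochberg adjusted p below 0.05, and the background over all 9543 genes tested was 0%. The lowest adjusted p of a flanking gene was 0.9997. At an unadjusted p below 0.05, 7 of the 56 flanking genes (12.5%) differed, 3 higher and 4 lower in KO, against a background of 43 of 9543 genes (0.451%). Voom on the recovered reads, which weights each value by its expected precision, also called 0. It put 6 flanking genes at an unadjusted p below 0.05 (10.7%, against 0.398% of all genes). The KO and WT values did not overlap for 8 flanking genes (14.3%), against 237 of all genes (2.48%). The 7 genes were Mettl7a3, Mettl7a2+Methig1 and Tuba1a, higher in KO, and Smarcd1, Dazap2, Cela1 and Tmem106c, lower in KO. Larp4 and Rhebl1 joined those without overlap, and Tmem106c overlapped. The list was drawn up with earlier results of these data known, so its share is not independent evidence. Mettl7a3 and Mettl7a2+Methig1 moreover passed the filter only through the KO libraries, where they are high. Over all 83 tested genes of the window, listed or not, 7 were below 0.05 (8.43%). Without KO replicate 3 the count of flanking genes fell to 3 (5.36%, against 0.335% of all genes). Without both WT replicate 3 and KO replicate 2 it was 21 (37.5%), where 22% of all genes were below 0.05.

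**Figure D1:**
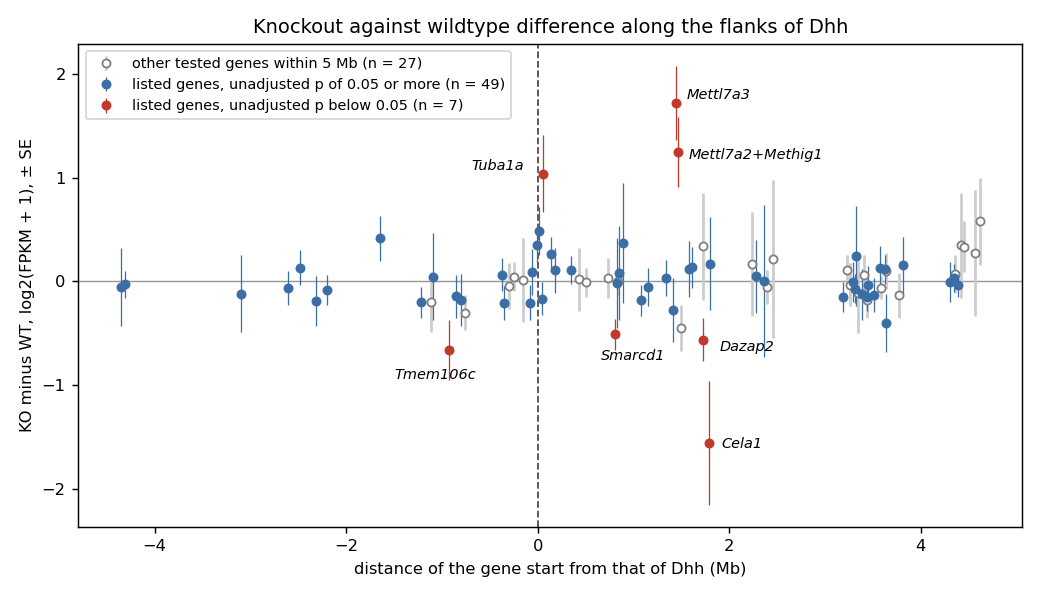
Log2 difference of KO over WT libraries (log2(FPKM + 1) scale, y axis) against the distance of each gene start from that of Dhh (Mb, x axis) for the tested genes of the window, with the listed genes set apart from the others and those at an unadjusted p below 0.05 named; points are limma estimates and bars ± SE. The named genes lie between 0.927 Mb below and 1.78 Mb above Dhh, with Mettl7a3 highest at 1.72 and Cela1 lowest at -1.55.

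In the METTL7A family, Mettl7a3 and Mettl7a2+Methig1 gave the highest KO minus WT differences of all genes tested, and Mettl7a1 did not. Those 2 rows passed the filter only through the KO libraries. Members of the family are predicted methyltransferases of the endoplasmic reticulum and lipid droplets, and 3 genes in tandem encode them 1.41 to 1.46 Mb from Dhh. These are Mettl7a1 (chr15:100304140-100328662), Mettl7a3 (chr15:100334929-100340375) and Mettl7a2 (chr15:100353149-100384436, the span of the row shared with Methig1), all on the plus strand of mm10. Their transcripts are so alike that a short read can fit more than one of them. The coding sequence of Mettl7a3 equals that of Mettl7a2 at 725 of 732 bases (99%) and that of Mettl7a1 at 690 (94.3%). The stretch below is shown because it is where reads can tell Mettl7a1 from the other two. It is coding positions 109 to 168 from the GENCODE M21 transcripts (GRCm38, plus strand, 5′ to 3′), with capitals at the 9 of 60 positions that are not the same in all 3 genes.
Mettl7a3, chr15:100335038-100335097: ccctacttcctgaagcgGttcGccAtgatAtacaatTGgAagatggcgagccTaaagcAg
Mettl7a2, chr15:100353318-100353377: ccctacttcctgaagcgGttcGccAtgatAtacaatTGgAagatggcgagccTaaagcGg
Mettl7a1, chr15:100304955-100305014: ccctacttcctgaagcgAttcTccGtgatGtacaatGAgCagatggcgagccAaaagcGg
Mettl7a3 and Mettl7a2 differ from each other at 1 of these positions. Of all 50-base windows of the Mettl7a3 transcript, 42.7% also occur in Mettl7a2 and 12.9% in Mettl7a1, and 54.1% occur in none of the family's other transcripts. The sources used here do not give how multiply placed reads were counted, and the division of reads among the 3 genes is uncertain.

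Mettl7a3 was at 1.83, 1.98 and 3.24 FPKM in KO libraries (36, 27 and 61 reads), at 2.10, 0.759 and 0.0453 FPKM in HET libraries (48, 8 and 1 reads) and at 0 in all 3 WT libraries. Every KO library was above every WT library, and the HET libraries spread over nearly the whole distance between them. A count of 0 allows up to 3 reads, on average 0.202 FPKM over the WT libraries, so the KO mean was at least 11.6-fold higher than WT, which covers counting error only. On the log2(FPKM + 1) scale, which understates low genes, the KO minus WT difference was 1.72 ± 0.35 (SE, n = 3 each; limma, unadjusted p = 0.000888, adjusted p = 0.9997). Among the 9543 genes tested this was the highest log2 difference between KO and WT. Mettl7a3 reached 1 FPKM only in the KO libraries and HET replicate 1. It thus passed the filter only through the KO libraries, where it is high, and its rank is not independent evidence.

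Mettl7a2+Methig1, the row that also takes in a fusion gene of the same locus, was at 1.01, 1.13 and 2.32 FPKM in KO (45, 35 and 99 reads), at 1.53, 0.461 and 0 FPKM in HET (79, 11 and 0 reads), and at 0.0704, 0 and 0 FPKM in WT libraries (2, 0 and 0 reads). The order of the libraries was close to that of Mettl7a3, with HET replicate 1 among the KO libraries and HET replicate 3 among the WT libraries. The KO minus WT difference was 1.25 ± 0.33 (SE; limma, unadjusted p = 0.00467, adjusted p = 0.9997). Both rows are low, between 0 and 99 reads, and they share sequence, so they are not separate observations. Mettl7a2+Methig1 also reached 1 FPKM only in the KO libraries and HET replicate 1, and passed the filter only through the KO libraries.

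Mettl7a1, the abundant member, was at 58.6, 29.3 and 57.4 FPKM in KO, at 35.9, 37.0 and 66.1 FPKM in HET, and at 60.1, 63.5 and 46.7 FPKM in WT libraries. Its groups overlapped, and the KO minus WT difference was -0.28 ± 0.31 (SE; limma, unadjusted p = 0.394). Without KO replicate 2 it was 0.04. WT replicates 1 and 2 had 60.1 and 63.5 FPKM of Mettl7a1 and 0 to 2 reads of either relative.

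**Figure D2:**
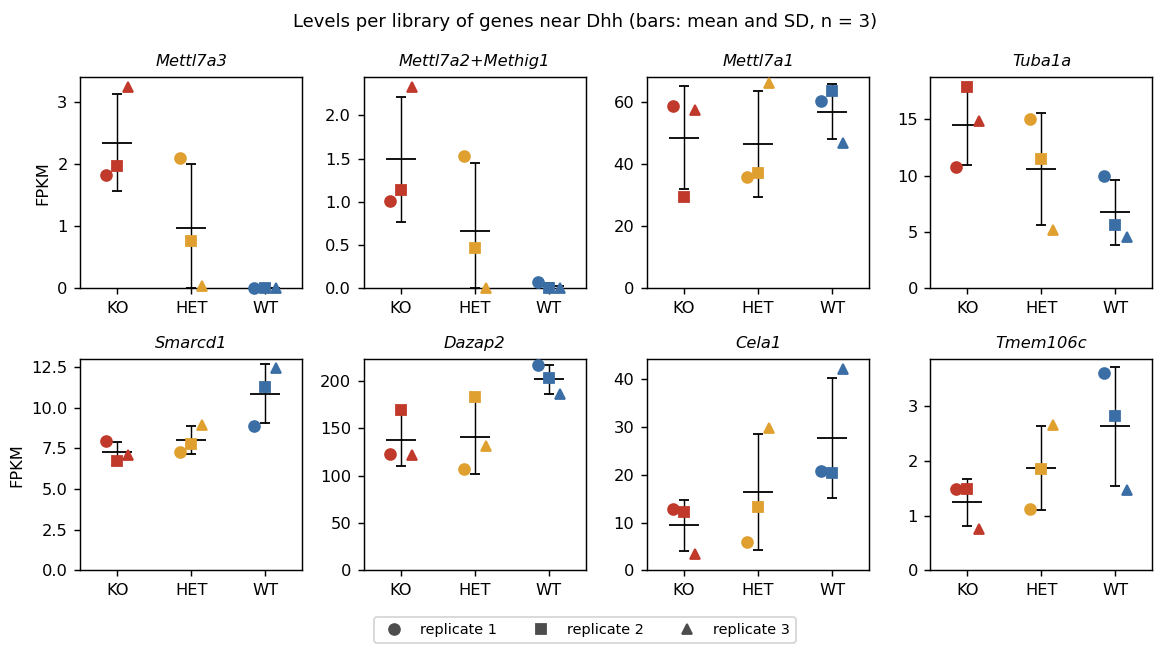
FPKM of Mettl7a3, Mettl7a2+Methig1, Mettl7a1, Tuba1a, Smarcd1, Dazap2, Cela1 and Tmem106c in each library (y axis, FPKM), by genotype (x axis, KO, HET, WT); points are libraries, with a symbol per replicate number, and bars are the mean ± SD of 3, cut at 0. Mettl7a3 and Mettl7a2+Methig1 lie at or near 0 in all WT libraries and above 1 FPKM in all KO libraries.

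The promoters of 2 of these genes are shown since the genes differ so widely in level. They are the 250 bases before the transcript start from RefSeq (GRCm38.p6, plus strand, 5′ to 3′), with matches to CCAAT on either strand (ATTGG on the strand printed) in capitals. RefSeq starts differ from those of the gene spans given above. The Mettl7a2 stretch runs past the start of its span, and the Mettl7a1 stretch lies within its span.
Mettl7a2, chr15:100352950-100353199: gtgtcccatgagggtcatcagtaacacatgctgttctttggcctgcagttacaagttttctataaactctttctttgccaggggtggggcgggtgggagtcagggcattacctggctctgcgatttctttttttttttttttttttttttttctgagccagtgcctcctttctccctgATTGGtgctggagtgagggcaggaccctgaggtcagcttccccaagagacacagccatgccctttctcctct
Mettl7a1, chr15:100304567-100304816: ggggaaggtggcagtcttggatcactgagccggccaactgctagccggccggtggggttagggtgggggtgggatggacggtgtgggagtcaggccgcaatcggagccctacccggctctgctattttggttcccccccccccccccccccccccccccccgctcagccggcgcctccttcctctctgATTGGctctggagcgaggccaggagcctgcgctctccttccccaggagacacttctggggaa
The promoters were identical at 143 of 221 aligned bases (64.7%), less than the coding sequences. Both hold 1 CCAAT match, as do 33.8% of 32851 promoters in the same table, 2 matches to CACCC, which 52% of promoters hold, and none to GATAA, which 22.6% hold, each searched on both strands. A match of letters is not a site, and these strings do not set the pair apart from each other.

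The alpha-tubulin genes, whose products build microtubules, lie next to Dhh. Tuba1a (chr15:98949837-98953703), the isotype known best from developing neurons, was at 10.8, 17.8 and 14.9 FPKM in KO, at 15.02, 11.5 and 5.19 FPKM in HET, and at 9.99, 5.64 and 4.56 FPKM in WT libraries. The lowest KO library was just above the highest WT library, and HET replicate 3 lay among the WT values. The KO minus WT difference was 1.04 ± 0.38 (SE; limma, unadjusted p = 0.0217, adjusted p = 0.9997). It missed an unadjusted p of 0.05 without KO replicate 2 (unadjusted p = 0.0763), KO replicate 3 (unadjusted p = 0.0542), WT replicate 2 (unadjusted p = 0.0616) or WT replicate 3 (unadjusted p = 0.0637), and without both WT replicate 3 and KO replicate 2 it was 0.68 (unadjusted p = 0.15).

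Tuba1b, the abundant alpha-tubulin of dividing cells, was at 217, 194 and 217 FPKM in KO, at 209, 220 and 216 FPKM in HET, and at 185, 238 and 295 FPKM in WT libraries. Tuba1c was at 98.5, 98.0 and 126 FPKM in KO, at 106, 92.0 and 83.4 FPKM in HET, and at 79.0, 82.6 and 107 FPKM in WT libraries. The groups overlapped for both. Their KO minus WT differences were -0.17 ± 0.16 for Tuba1b (limma, unadjusted p = 0.329), which was 0.05 without WT replicate 3 and KO replicate 2, and 0.26 ± 0.16 for Tuba1c (unadjusted p = 0.142). Per length, Tuba1a was the lowest of the 3 tubulins in every library. Its coding sequence is 98.3% identical to that of Tuba1b and 97.6% to that of Tuba1c, and 48% of its 50-base windows occur in neither, so reads could pass between them. The other tested genes of cytoskeleton handling were Twf1, an actin-binding protein, Lima1, an actin-binding LIM protein, and Troap, a protein of the mitotic spindle. None of them was below an unadjusted p of 0.05.

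The chromatin genes had 1 of 7 below an unadjusted p of 0.05. Smarcd1 (chr15:99702129-99713991), a subunit of the SWI/SNF remodelling complex, was at 7.96, 6.75 and 7.09 FPKM in KO, at 7.30, 7.78 and 8.93 FPKM in HET, and at 8.88, 11.3 and 12.4 FPKM in WT libraries. All KO libraries were below all WT libraries, and only HET replicate 3 reached the lowest WT value. The KO minus WT difference was -0.51 ± 0.15 (SE; limma, unadjusted p = 0.00853, adjusted p = 0.9997), and it kept its sign and an unadjusted p below 0.05 under all 20 alternatives tried. The other 6 were Kmt2d, a histone H3 methyltransferase, Arid2, another SWI/SNF subunit, Kansl2 and Mcrs1 of histone acetylating complexes, the deacetylase Hdac7 and the heterochromatin protein Cbx5. Their KO minus WT differences lay between -0.06 and 0.11.

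Dazap2 (chr15:100615349-100620761), a small proline-rich adaptor protein, was at 123, 169 and 121 FPKM in KO, at 108, 183 and 131 FPKM in HET, and at 216, 203 and 186 FPKM in WT libraries. All KO and all HET libraries were below all WT libraries. The difference was -0.56 ± 0.21 (SE; limma, unadjusted p = 0.0229, adjusted p = 0.9997) for KO minus WT and -0.55 ± 0.21 (unadjusted p = 0.0256) for HET minus WT. The highest KO and HET libraries were replicate 2, the shallower library of each genotype, and with depth as a covariate the KO minus WT difference was -0.47 (unadjusted p = 0.00186). It missed 0.05 without KO replicate 1 (unadjusted p = 0.0753), KO replicate 3 (unadjusted p = 0.0768), WT replicate 1 (unadjusted p = 0.0619) or WT replicate 2 (unadjusted p = 0.0542), and with quantile normalization (unadjusted p = 0.0521). None of the other tested genes of RNA binding and translation passed an unadjusted 0.05. Among these, Larp4, which binds poly(A) tails, was at 3.43, 3.56 and 2.99 FPKM in KO, at 3.49, 4.62 and 3.54 FPKM in HET, and at 3.69, 4.15 and 3.87 FPKM in WT libraries, so that KO and WT did not overlap (difference -0.18 ± 0.15, unadjusted p = 0.247).

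Cela1 (chr15:100674421-100687921, minus strand), a chymotrypsin-like elastase, had the most negative KO minus WT difference of all 9543 genes. It was at 12.8, 12.2 and 3.34 FPKM in KO, at 6.00, 13.3 and 29.7 FPKM in HET, and at 20.7, 20.3 and 42.2 FPKM in WT libraries. All KO libraries were below all WT libraries, while of the HET libraries replicate 1 lay within the KO values, replicate 2 between KO and WT and replicate 3 within the WT values. The difference was -1.55 ± 0.60 (SE; limma, unadjusted p = 0.0286, adjusted p = 0.9997). Without KO replicate 3, the lowest library, it was -1.01 (unadjusted p = 0.113), and without WT replicate 3, the highest, -1.22 (unadjusted p = 0.0836). Without both WT replicate 3 and KO replicate 2 the unadjusted p was 0.0623.

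Tmem106c (chr15:97964200-97970275), a transmembrane protein gene on the other side of Dhh, was at 1.49, 1.49 and 0.752 FPKM in KO, at 1.12, 1.84 and 2.64 FPKM in HET, and at 3.59, 2.81 and 1.46 FPKM in WT libraries. Its groups overlapped, with WT replicate 3 inside the KO range. The difference was -0.66 ± 0.29 (SE; limma, unadjusted p = 0.0472), and 7 of 19 alternatives left it below 0.05.

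The listed genes nearest to Dhh were measured one by one. Rhebl1, a GTPase that can activate mTORC1, overlaps Dhh on the same strand over 3389 bases in the annotation. It was at 2.12, 1.83 and 2.22 FPKM in KO, at 2.35, 2.37 and 1.73 FPKM in HET, and at 1.23, 1.26 and 1.73 FPKM in WT libraries. KO values lay above WT values without overlap, and HET replicate 3 was just above WT replicate 3. The difference was 0.35 ± 0.16 for KO minus WT (limma, unadjusted p = 0.0627) and 0.39 ± 0.16 for HET minus WT (unadjusted p = 0.043). With quantile normalization the p was 0.249 for KO minus WT and 0.287 for HET minus WT.

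Lmbr1l, a membrane receptor that dampens Wnt signalling in lymphocytes, lies 5376 bases from Dhh on the other side. It is on the minus strand, so its transcript ends, rather than starts, on the side of Dhh. It was at 5.77, 8.11 and 8.30 FPKM in KO, at 7.35, 6.33 and 5.35 FPKM in HET, and at 5.69, 6.26 and 3.31 FPKM in WT libraries. The groups overlapped, with KO replicate 1 at the level of WT replicate 1. The KO minus WT difference was 0.48 ± 0.23 (limma, unadjusted p = 0.0623), and 0.19 without WT replicate 3 and KO replicate 2.

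Kmt2d, 19947 bases away, was at 8.70, 9.41 and 7.12 FPKM in KO, at 9.80, 11.9 and 6.54 FPKM in HET, and at 8.08, 9.37 and 6.20 FPKM in WT libraries. Prkag1, a regulatory subunit of the energy sensor AMPK, was at 103, 83.9 and 89.6 FPKM in KO, at 90.4, 83.5 and 92.3 FPKM in HET, and at 88.6, 98.3 and 138 FPKM in WT libraries. Ccnt1, the cyclin of the elongation factor P-TEFb, was at 18.0, 12.3 and 15.3 FPKM in KO, at 16.8, 17.7 and 14.7 FPKM in HET, and at 15.4, 18.1 and 19.4 FPKM in WT libraries. All 3 overlapped between genotypes. The KO minus WT differences were 0.09 ± 0.22 for Kmt2d, -0.21 ± 0.17 for Prkag1 and -0.21 ± 0.16 for Ccnt1 (limma, unadjusted p = 0.691, 0.247 and 0.226). Without WT replicate 3 and KO replicate 2 they were -0.13, 0.04 and -0.01. Arf3, Ddx23 and Adcy6, tested genes outside the list, lie nearer to Dhh than Ccnt1. Their KO minus WT differences were 0.01 ± 0.40, 0.05 ± 0.14 and -0.04 ± 0.22 (limma, unadjusted p = 0.973, 0.758 and 0.845).

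Of the other groups, none of the 8 tested transcription factor and elongation genes, none of the 7 metabolic genes and none of the 5 signalling and adhesion genes was below an unadjusted p of 0.05 between KO and WT. They include the transcription factors Sp1 and Atf1, the glycolytic enzyme Pfkm, whose differences were -0.14 ± 0.16, 0.03 ± 0.18 and -0.18 ± 0.25, and the immune kinase Irak4, at -0.05 ± 0.38. Transport and membrane genes had Tmem106c alone, of 7. Over all 56 genes, 26 differences were positive and 30 negative. The median was -0.01, against 0.01 over all genes, and the median absolute difference was 0.14, against 0.09 over all genes. For 44 of the 56 genes the 95% interval of the KO minus WT difference stayed within a doubling or halving of FPKM + 1. For low genes this allows a larger change of FPKM itself. Mean levels ran from 0.725 FPKM for Mettl7a2+Methig1 to 221 FPKM for Tuba1b.

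**Figure D3:**
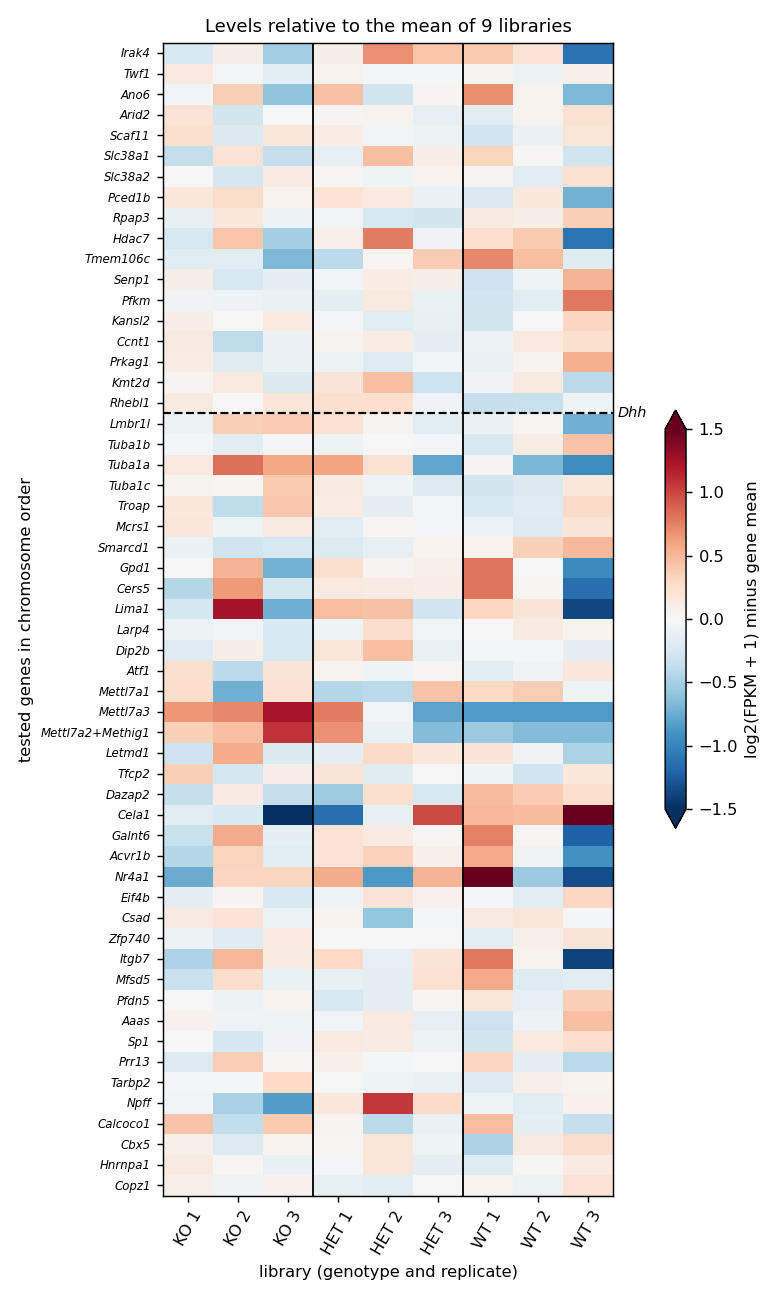
Log2(FPKM + 1) of the flanking genes in each library minus the gene's mean over all 9 libraries (colour scale in log2 units, clipped at its ends), genes ordered by position along chromosome 15 and libraries in the columns, KO, then HET, then WT. Mettl7a3 and Mettl7a2+Methig1 are above their means in all KO libraries and HET replicate 1 and below them in all WT libraries and HET replicate 3, and Nr4a1, Lima1 and Itgb7 are lowest in WT replicate 3.

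Some flanking genes had their extremes in the libraries at the extremes of the leukocyte marker sum. Itgb7, an integrin of lymphocyte homing, was at 10.7, 21.8 and 16.7 FPKM in KO, at 18.7, 13.7 and 17.4 FPKM in HET, and at 26.8, 15.6 and 5.15 FPKM in WT libraries. Lima1, the actin-binding LIM protein, was at 1.98, 7.50 and 1.15 FPKM in KO, at 3.92, 3.84 and 1.91 FPKM in HET, and at 3.43, 3.09 and 0.388 FPKM in WT libraries. Both were lowest in WT replicate 3, which had the lowest leukocyte marker sum, and highest in WT replicate 1 or KO replicate 2, which had the highest sums. Their KO minus WT differences were 0.24 ± 0.48 and 0.37 ± 0.57 (limma, unadjusted p = 0.627 and 0.535), and the part of the marker sum in them was not tested. A covariate was then added to the fit, the mean log2(FPKM + 1) of the leukocyte markers rather than their sum. With it, 10 flanking genes (17.9%) were below an unadjusted p of 0.05, the 7 and 3 others, while the background was 157 of all genes (1.65%). The 7 had their direction as before. Mettl7a3 was then at 1.74 (unadjusted p = 0.000526), Mettl7a2+Methig1 at 1.26 (unadjusted p = 0.00306), Tuba1a at 0.95 (unadjusted p = 0.0148) and Smarcd1 at -0.47 (unadjusted p = 0.00431). Dazap2 was at -0.61 (unadjusted p = 0.00555), Cela1 at -1.49 (unadjusted p = 0.0268) and Tmem106c at -0.75 (unadjusted p = 0.00655).

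The distance from Dhh was then compared. Among tested genes that start 0 to 1 Mb from Dhh, 3 of 26 (11.5%) were below an unadjusted p of 0.05 between KO and WT. At 1 to 2.5 Mb there were 4 of 25 (16%). These 4 include Mettl7a3 and Mettl7a2+Methig1, which share sequence and passed the filter only through the KO libraries. The share of that bin is therefore not independent evidence. At 2.5 to 5 Mb there were 0 of 32. Beyond 5 Mb on chromosome 15 there was 1 of 299 (0.334%), and on other chromosomes 35 of 9161 (0.382%). Chromosome 15 as a whole had 8 of 382 (2.09%), the highest share of any chromosome. Between KO and WT, 6 of 38 listed genes (15.8%) on the side of higher coordinates were below 0.05, Mettl7a3 and Mettl7a2+Methig1 among them. On the side of lower coordinates there was 1 of 18 (5.56%). Between HET and WT the shares went the other way, with 3 of 38 (7.89%) on the higher side and 2 of 18 (11.1%) on the lower. All 7 genes below 0.05 between KO and WT lay within 1.78 Mb of Dhh. At 2.5 to 5 Mb the largest difference of a tested gene was 0.58 ± 0.42 (limma, unadjusted p = 0.205). It belonged to Pde1b, a phosphodiesterase outside the list at 4.61 Mb, and that of a listed gene was -0.40, for Npff. Beyond 5 Mb on chromosome 15 the differences ran from -1.33 to 0.62, so larger ones occurred farther away. Neighbouring genes of a library are not independent, and whether distance as such sets the counts was not tested.

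**Figure D4:**
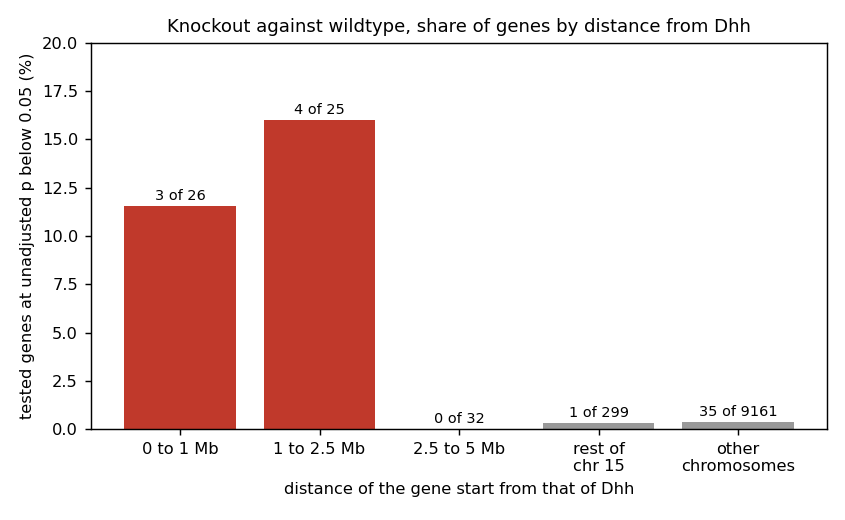
Share of tested genes with an unadjusted p below 0.05 between KO and WT libraries (%, y axis, from 0) by the distance of the gene start from that of Dhh (x axis), with counts above each bar. The share was 11.5% at 0 to 1 Mb and 16% at 1 to 2.5 Mb, and 0 of 32 genes at 2.5 to 5 Mb. The bar for 1 to 2.5 Mb includes Mettl7a3 and Mettl7a2+Methig1, which passed the filter only through the KO libraries.

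In HET against WT libraries, limma called 0 of the 56 genes (background 0%, lowest adjusted p 0.9999). At an unadjusted p below 0.05 there were 5 (8.93%), 2 higher and 3 lower in HET, against 113 of 9543 genes (1.18%). By voom there were 4 (7.14%, against 0.954% of all genes). The 5 were Mettl7a3 (0.84 ± 0.35, unadjusted p = 0.0425) and Rhebl1, higher, and Dazap2, Smarcd1 (-0.39 ± 0.15, unadjusted p = 0.0313) and Rpap3, lower. Rpap3, a cochaperone that helps assemble RNA polymerase II, was at 4.36, 3.64 and 3.54 FPKM in HET and at 5.05, 4.83 and 6.06 FPKM in WT libraries, which did not overlap (-0.38 ± 0.15, unadjusted p = 0.0321). Its KO values of 4.10, 5.15 and 4.22 FPKM overlapped with both. HET and WT did not overlap for 5 flanking genes (8.93%), against 416 of all genes (4.36%). The count at an unadjusted 0.05 rested on single libraries. Without HET replicate 2 it was 1 (1.79%, against 1.34% of all genes), and without WT replicate 3 it was 2 (3.57%, against 3.07%), so that both shares were near the background. It was 2 without HET replicate 1 (against 0.65% of all genes), and 3 (5.36%) without KO replicate 1, WT replicate 1 or WT replicate 2, against 0.796%, 3.71% and 1.32% of all genes. Without both WT replicate 3 and KO replicate 2 it was 2 (3.57%), below the 7.48% of all genes. This comparison and that of KO against WT share the WT libraries.

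In KO against HET libraries, limma called 0 genes (background 0%, lowest adjusted p 0.9996), and 2 of 56 (3.57%) were below an unadjusted 0.05, against 56 of 9543 (0.587%). By voom there were also 2 (3.57%, against 0.555%). Mettl7a3 was higher in KO (0.88 ± 0.35, unadjusted p = 0.0342), but not below 0.05 with the replicate number as a block (unadjusted p = 0.0515). Npff, the precursor of neuropeptide FF, was at 1.32, 0.712 and 0.345 FPKM in KO (8, 3 and 2 reads), at 1.70, 4.00 and 1.91 FPKM in HET (12, 13 and 13 reads), and at 1.29, 1.14 and 1.51 FPKM in WT libraries (5, 5 and 9 reads). KO and HET did not overlap (-0.96 ± 0.28, unadjusted p = 0.0073). WT values overlapped with those of KO, and the annotated gene Gm28047 overlaps the locus. KO and HET values did not overlap for 3 flanking genes (5.36%), against 428 of all genes (4.48%). The main fit was unpaired. With the replicate number as a block over all 9 libraries the count was 1 (1.79%, against 0.692% of all genes). This was Npff (limma, unadjusted p = 0.0131). Without KO replicate 2 the count was still 2 (3.57%), below the 5.23% of all genes. It was 1 (1.79%) without KO replicate 3, HET replicate 2 or HET replicate 3, against 0.304%, 0.335% and 0.723% of all genes. Without WT replicate 3 and KO replicate 2 it was 11 (19.6%), where 16.3% of all genes were below 0.05.

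A slope on the number of Dhh null alleles (2 in KO, 1 in HET, 0 in WT) called 0 genes (background 0%, lowest adjusted p 0.9997) and put 8 of 56 (14.3%) below an unadjusted 0.05, 4 positive and 4 negative, against 53 of 9543 genes (0.555%). These were the 7 genes above and Lmbr1l, at 0.24 ± 0.11 log2 units per null allele (unadjusted p = 0.0478). The slope of Mettl7a3 was 0.86 ± 0.17 (unadjusted p = 0.000419), the highest of all genes tested, and that of Mettl7a2+Methig1 was 0.62 ± 0.16 (unadjusted p = 0.00264). Both had passed the filter only through the KO libraries. Cela1 had -0.78 ± 0.28 (unadjusted p = 0.0208). Without KO replicate 3 the count was 4 (7.14%, against 0.472% of all genes). Without WT replicate 3 and KO replicate 2 it was 22 (39.3%), where 22% of all genes were below 0.05.

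The HET libraries did not sit alike between the other genotypes. On a scale where the WT mean is 0 and the KO mean is 1 (log2(FPKM + 1)), HET replicate 1 lay between 0.949 and 1.6 for all 7 genes, past the KO mean for 5 of them. HET replicate 2 lay between 0.24 for Dazap2 and 0.823 for Smarcd1. HET replicate 3 was at 0.037 for Mettl7a3, -0.026 for Mettl7a2+Methig1, -0.25 for Tuba1a, -0.11 for Cela1, -0.084 for Tmem106c and 0.48 for Smarcd1, and at 1.09 for Dazap2. It was the HET library nearest to WT for 6 of the 7 genes. All 3 carry the same genotype label, and Dhh is too low to check it. The 7 genes were those that differed between KO and WT, so the scale is a description, and why the 3 libraries differ was not tested.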

How the data were processed

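The authors deposited a single table of FPKM-type values for the 9 libraries. TopHat, Picard, DESeq2 and build mm10 are named in the submitters' processing notes. The annotation, strandedness, read length and handling of multiply placed reads are not stated there, and near-identical or overlapping genes may have shared reads. For 14147 of 14147 genes detected in 2 or more libraries, the steps of the values gave whole reads (tolerance 0.05), which makes the deposited FPKM reads divided by a per-gene constant and a median-of-ratios size factor (11276 genes). Identifiers were matched to GENCODE M21 for 20092 genes (98.6%). Depth was 7.05 to 14.23 M (megareads) per library. All 36 pairs of libraries differed beyond counting noise, with a chi-square of at least 8.69 per degree of freedom.

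The 9543 genes that reached 1 FPKM in 3 or more libraries were fitted as log2(FPKM + 1) with limma 3.58.1 in R 4.3.3 (1 mean per genotype over all 9 libraries, eBayes with a trend, 2-sided, Benjamini-Hochberg over all genes), and in a second form with a slope on null alleles. The fit was tested on simulated data. With 3 libraries against 3, the smallest exact permutation p is 0.1, and none is printed. Precision at low depth is limited by counting error, and the 3-read floor covers that error only. Python 3.11.15 was used for tables and figures. Promoters came from RefSeq, which held 52 of the 60 genes.

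Members and lists were chosen with earlier results of these data known. Listed genes given in full are the 10 with the lowest unadjusted p over the 4 fits. Those without KO and WT overlap and a log2 difference of at least 0.5 were added. The 4 tested listed genes nearest to Dhh on each side and the 2 near-identical families are also given. Larp4, Itgb7, Lima1, Irak4, Sp1, Atf1 and Pfkm were named after their values were seen. Replicate numbers were taken from the labels, where no litter, batch or day is named. Deviations of same-numbered libraries (numbers 1, 2 and 3) correlated at 0.197, 0.183 and 0.407 between KO and HET, all above 0.1. They correlated at -0.568, 0.508 and 0.326 between KO and WT and at 0.128, 0.181 and 0.001 between HET and WT, which were not all above 0.1. The main fits were unpaired in every comparison. The replicate number entered only in the replicate block, an alternative that covered all 9 libraries, WT included. Up to 20 alternatives were run per comparison: pseudocount, filters, no trend, quantile normalization, replicate block, voom, depth and leukocyte covariates, and libraries left out. A count model was not run on FPKM values.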

Additional observations from a re-analysis of the deposited data

How the results depend on the processing

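Adjusted calls among the flanking genes stayed at 0 in all 4 fits under every alternative. The counts at an unadjusted p below 0.05 moved by more than 1.5 times as follows. For KO against WT, the main count of 7 was 4 with a filter of 5 FPKM, which tests 39 of the genes (10.3%, against 0.277% of all genes). Without WT replicate 3 and KO replicate 2 it was 21 (37.5%, against 22%). With 1 library left out it was 3 to 7 (5.36% to 12.5%, against 0.335% to 2.64%). For HET against WT, the main count of 5 was 2 with the 5 FPKM filter (5.13%, against 1.4% of all genes). It was 1 with quantile normalization (1.79%, against 0.933%) and 2 with the replicate block (3.57%, against 1.69%). It was 2 with only the pair of genotypes in the fit (3.57%, against 0.912%) and 3 with a depth covariate (5.36%, against 2.6%). Without WT replicate 3 and KO replicate 2 it was 2 (3.57%, below the 7.48% of all genes). With 1 library left out it was 1 to 6 (1.79% to 10.7%, against 0.65% to 3.71%). For KO against HET, the main count of 2 was 1 with a pseudocount of 0.1 (1.79%, against 0.608% of all genes). It was 0 with the 5 FPKM filter (against 0.493%) and 1 with the replicate block (1.79%, against 0.692%). Without WT replicate 3 and KO replicate 2 it was 11 (19.6%, against 16.3% of all genes). With 1 library left out it was 1 to 3 (1.79% to 5.36%, against 0.304% to 5.23%). The count of 2 without KO replicate 2 (3.57%) was below the 5.23% of all genes. For the slope, the main count of 8 was 4 with the 5 FPKM filter (10.3%, against 0.308% of all genes). Without WT replicate 3 and KO replicate 2 it was 22 (39.3%, against 22%). With 1 library left out it was 4 to 8 (7.14% to 14.3%, against 0.419% to 2.51%). The causes were not tested, except that the 5 FPKM filter removes the low genes, Mettl7a3, Mettl7a2+Methig1 and Tmem106c among them. The replicate block gave 6 genes for KO against WT (10.7%, against 0.587% of all genes) and 8 for the slope (14.3%, against 0.671%). It changed no adjusted call.

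Mettl7a3 and Mettl7a2+Methig1 kept an unadjusted p below 0.05 between KO and WT in 19 of 19 alternatives and Smarcd1 in 20 of 20, while Cela1 did so in 17, Tuba1a in 15 and Dazap2 in 15 of 20. The alternatives refit the same libraries in which these genes were found, so the counts are not independent evidence. Mettl7a3 and Mettl7a2+Methig1 also share sequence and passed the filter only through the KO libraries. The KO minus WT difference of Mettl7a3 ranged from 1.53 with quantile normalization to 6.13 with voom, where a WT group at 0 makes the value depend on the prior count. Depth limits the low genes most: Mettl7a3, Mettl7a2+Methig1 and Npff rest on at most 99 reads in a library.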

Other observations

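The tested genes of the window outside the list had 0 of 27 below an unadjusted p of 0.05 in each of the 4 limma fits. Over all genes the shares were 0.451% for KO against WT, 1.18% for HET against WT, 0.587% for KO against HET and 0.555% for the slope. With 27 genes, 0 is near these shares. The lowest p values belonged to Slc11a2, the iron transporter DMT1 that erythroblasts use to bring iron out of endosomes, to Asb8, which encodes an ankyrin repeat and SOCS box protein, and to Cox14, an assembly factor of cytochrome oxidase. Slc11a2 was at 42.4, 25.7 and 35.4 FPKM in KO, at 33.3, 39.0 and 51.9 FPKM in HET, and at 39.0, 47.8 and 54.4 FPKM in WT libraries. Its groups overlapped, with a KO minus WT difference of -0.45 ± 0.22 (SE; limma, unadjusted p = 0.0736). The HET minus WT difference was -0.35 ± 0.17 for Asb8 (limma, unadjusted p = 0.0715) and -0.26 ± 0.14 for Cox14 (unadjusted p = 0.0949). Nfe2, an erythroid and megakaryocytic transcription factor 4.36 Mb from Dhh, was at 342, 240.5 and 368 FPKM in KO, at 251, 251 and 307 FPKM in HET, and at 330.4, 308 and 256 FPKM in WT libraries, which overlapped (unadjusted p = 0.704). The 1 gene of chromosome 15 beyond 5 Mb at an unadjusted p below 0.05 between KO and WT was Ttc38, 13.1 Mb below Dhh. It was at 4.34, 4.88 and 4.94 FPKM in KO, at 2.51, 2.38 and 4.56 FPKM in HET, and at 3.16, 2.94 and 2.15 FPKM in WT libraries, and KO and WT did not overlap (0.62 ± 0.21, unadjusted p = 0.0182, adjusted p = 0.9997). Nfe2 was chosen after its values were seen.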
